A study of Mus musculus with 2 samples.

Results

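The genes described here are those of the translation initiation factors (eIFs) and elongation factors (eEFs) of mouse bone marrow-derived macrophages (BMDMs). They were chosen by name from the FPKM table: symbols that start with Eif and a digit from 1 to 6, or with Eef and a 1 or 2, were taken, and the Argonaute genes (Eif2c), the eIF2 kinases (Eif2ak) and pseudogenes (-ps) were left out. This gave 60 of 37451 gene rows, with 58 distinct symbols. The rule reads symbols only and uses no measured value, although it was set with earlier results of these data known. The table holds 1 WT and 1 ΔM library of BMDMs. ΔM cells come from TTP fl/fl LysMCre mice, in which *Zfp36*, the gene of the mRNA-destabilizing protein tristetraprolin (TTP), is deleted by a Cre recombinase driven from the lysozyme M locus, and WT cells come from littermates whose alleles are not described further. All mice were C57BL/6 and 7 to 9 weeks old, and whether a library pooled several animals is not given in the sources used here. Bone marrow was differentiated with CSF-1 from L929 cells, and both cultures received 100 μM 4-thiouridine for 16 h and 10 ng/ml lipopolysaccharide (LPS) for 6 h, so the comparison is between genotypes of stimulated cells and holds no unstimulated sample. The sample titles carry the mark LPS7, whereas the protocol gives 6 h.

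Initiation begins when eIF2, bound to GTP, brings the initiator tRNA to the small ribosomal subunit, together with eIF1, eIF1A, eIF3 and eIF5. The eIF4F complex, made of the cap-binding protein eIF4E, the scaffold eIF4G and the helicase eIF4A, attaches this subunit to the capped 5′ end of the mRNA, and eIF2B recharges eIF2 with GTP for the next round. During elongation eEF1A delivers aminoacylated tRNAs and eEF2 moves the ribosome along the mRNA. In macrophages, LPS signalling is known to act on this machinery through the mTOR and MNK kinases, and TTP is known for binding AU-rich elements in the 3′ UTRs of inflammatory mRNAs.

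FPKM correct the fragments of a gene for exon length and for library depth, so levels of different genes can be compared per length. From the steps between low FPKMs, depth was estimated at about 36300000 fragments in WT and 32100000 fragments in ΔM. With 1 library per genotype there is no replicate check, and no p-value was calculated. The 95% Poisson intervals given below cover counting error only, and they are approximate because they rest on the median annotated transcript length of each gene. The deleted gene, *Zfp36*, was at 65.3 in WT and 16.7 FPKM in ΔM, a log2 ratio of -1.90. The 6 macrophage markers summed to 3578 FPKM in WT and to 2426 in ΔM. Of these, *Cd68* (388 and 390 FPKM), *Emr1* (379.9 and 357 FPKM), *Itgam* (223 and 199.9 FPKM) and *Csf1r* (104 and 119 FPKM) were above 100 FPKM in both libraries. *Mertk* was at 2.15 and 3.48 FPKM. *Lyz2*, the lysozyme M gene whose locus drives Cre in ΔM, was at 2481 and 1356 FPKM. *Lyz2* thus held most of the difference between the sums, and the part of the Cre allele in it was not tested. Of the T cell markers *Cd3e* and *Cd3g* were at 0 in both libraries and *Cd4* was at 1.03 and 0.77 FPKM. The summed neutrophil markers were at 50.8 in WT and 100.1 FPKM in ΔM, nearly all of it *S100a8*. In contrast, *S100a9*, *Ly6g* and *Elane* were at 0 in both and *Mpo* was at 0.09 and 0.05 FPKM. The part of these marker differences in the results below was not tested. In bulk samples fewer cells of a type cannot be told apart from less RNA per cell.

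Of the 60 rows, 52 had a mean of at least 1 FPKM over the libraries and 8 did not. The levels of the 52 spanned from 0.28 to 1003 FPKM in WT and from 1.58 to 965 FPKM in ΔM, with medians of 12 FPKM in each library. The highest was *Eif4g2*, which encodes a scaffold related to eIF4G1 that lacks the part binding eIF4E. It was at 1003 FPKM (987 to 1019) in WT and 965 FPKM (948 to 982) in ΔM and alone held 42.9% and 42.3% of the FPKM of all 60 rows. Next came *Eef1a1*, the carrier of aminoacylated tRNA, with 247 and 245 FPKM, and *Eef1b2*, an exchange factor of eEF1A, with 201 and 186 FPKM. The scaffold *Eif4g1* (80.1 and 68.7 FPKM) and the helicase *Eif4a2* (74.1 and 104 FPKM) completed the 5 highest in WT. The order of the 52 levels was nearly shared between the libraries, with a Spearman's rho of 0.97 across genes (0.88 over the 10765 genes averaging at least 1 FPKM). Genes are not independent replicates, and each library contributes all of its points.

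The 8 rows under the minimum are paralogues or regulators and 1 subunit of eIF3. *Eef1a2*, the eEF1A form of muscle and neurons, was at 0.33 and 0.38 FPKM, and *Eif5a2*, the second gene of eIF5A, was at 0.34 and 0.36 FPKM. The eIF4E inhibitors *Eif4ebp2* (0.32 and 0.44 FPKM) and *Eif4ebp3* (0 and 0.47 FPKM), the subunit *Eif3j* (0.14 and 0.21 FPKM) and 1 of 2 rows named *Eif4e3* (0.14 and 0.10 FPKM) were also close to 0. *Eif4e1b*, the eIF4E form of oocytes, and a second row named *Eef2k* were at 0 in both libraries. For *Eif4e1b*, 0 fragments allow up to 0.152 in WT and 0.172 FPKM in ΔM (3 fragments). The member just above the minimum was *Eif5b*, the GTPase of subunit joining, with a mean of 1.69 FPKM.

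**Figure D1:**
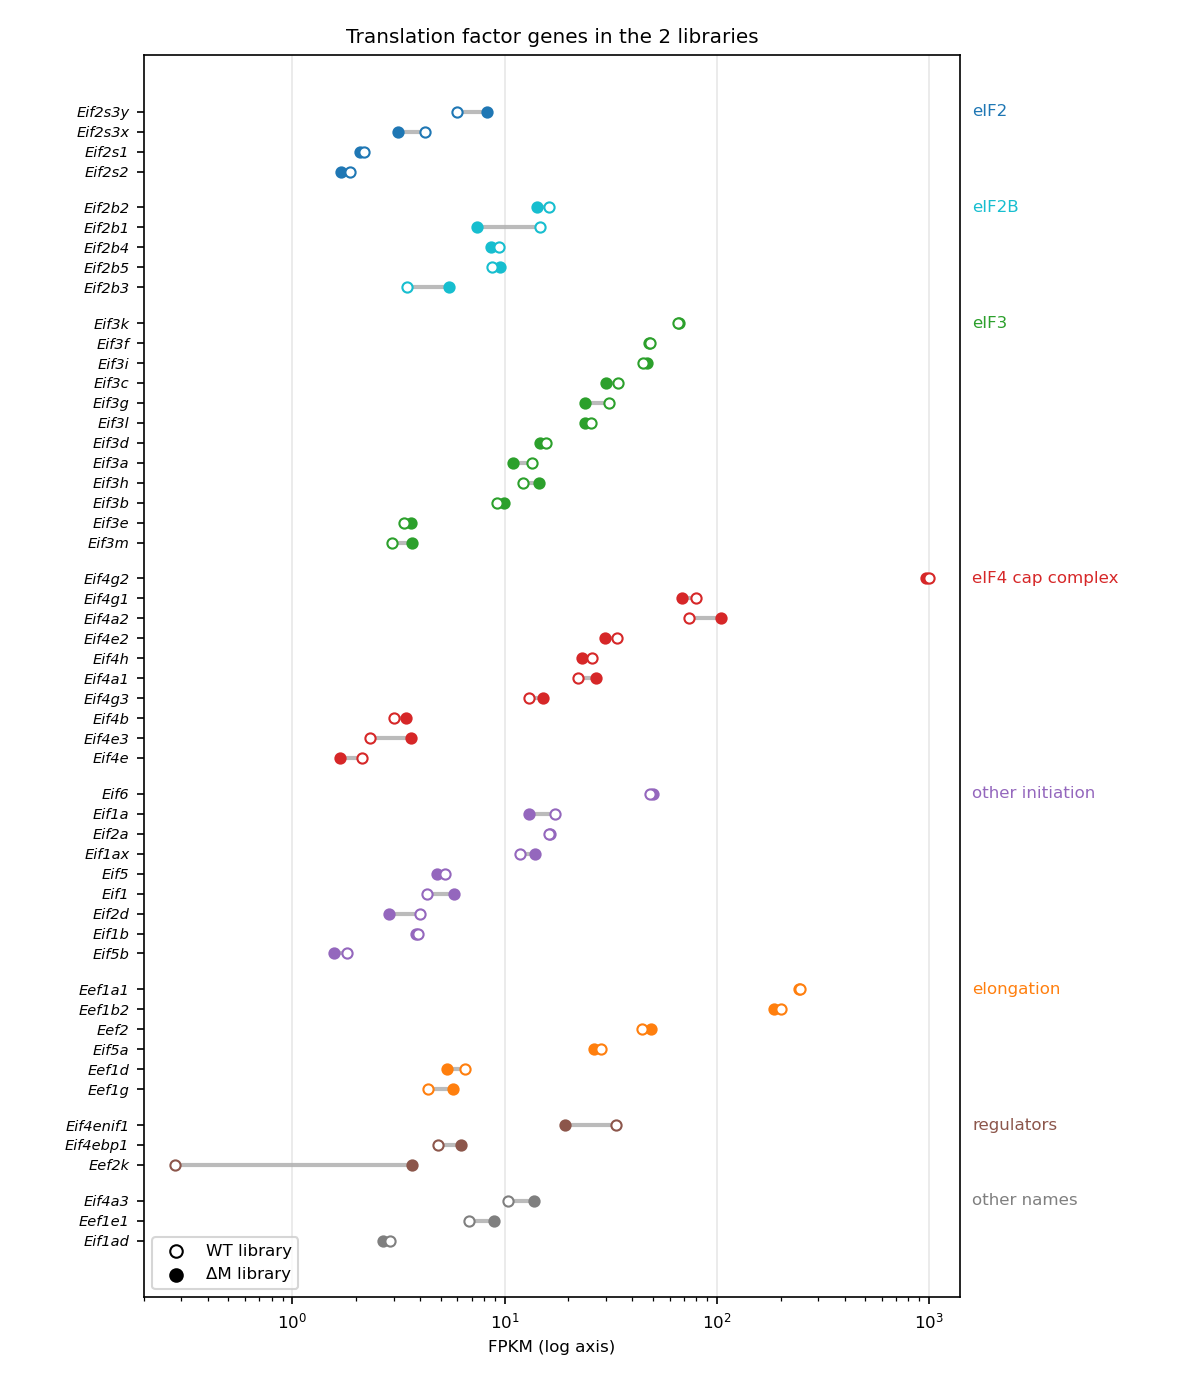
Levels of the 52 translation factor genes averaging at least 1 FPKM, on a logarithmic FPKM axis, grouped by role and ordered by the WT value; open circles are the WT library, filled circles the ΔM library, and the grey bar joins both. *Eif4g2* stands at 1003 and 965 FPKM, and the longest bar is that of *Eef2k*, from 0.28 FPKM in WT to 3.68 FPKM in ΔM.

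Most translation factor genes, like most protein-coding genes, had similar levels in both libraries. The ratio of ΔM to WT was taken on the log2 scale after adding 1 FPKM to both values, which understates the change of low genes. The median log2 ratio of the 52 genes was -0.03, with quartiles of -0.16 and 0.22, beside 0.03 over all 10765 genes and -0.0015 over the 8078 protein-coding genes among them. On this scale the libraries were within 1.2-fold of each other for 34 of the 52 genes (65.4%), against 55.9% of all genes and 63.1% of protein-coding genes. In ΔM, 24 of the 52 genes (46.2%) were higher and 28 lower, against 53.8% of all genes and 49.5% of protein-coding genes higher, and the summed FPKM of the 52 was 2337 in WT and 2282 in ΔM.

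A difference of at least 1.5-fold on this scale was taken as the call. It was reached upward by 1 gene, *Eef2k* (1.92% of 52, against 11.2% of all genes and 4.82% of protein-coding genes), and downward by 2, *Eif2b1* and *Eif4enif1* (3.85%, against 7.51% of all genes and 5.36% of protein-coding genes). In either direction the share was 5.77%, against 18.7% of all genes and 10.2% of protein-coding genes. Counting intervals of the libraries did not overlap for 21 of the 51 members that have one (41.2%), against 34.1% of all genes and 36.9% of protein-coding genes. The share was near that of the other genes, so differences beyond these intervals were common and no trait of the members. Whether they exceed the spread between animals cannot be told from 1 library each.

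**Figure D2:**
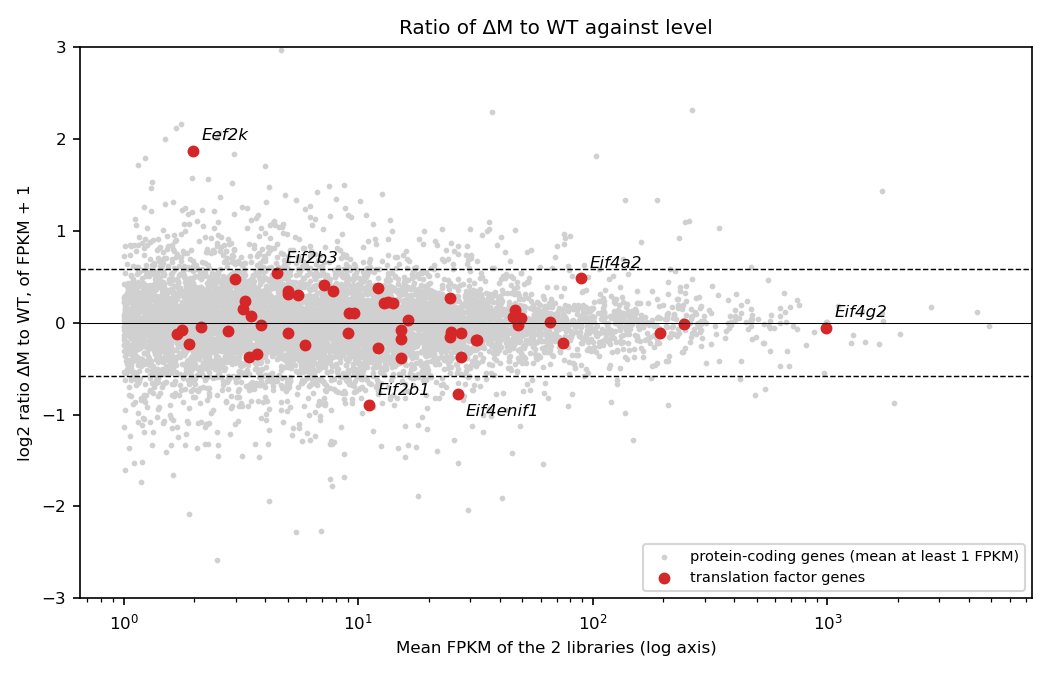
Log2 ratio of ΔM to WT of FPKM + 1 against the mean FPKM of the libraries (logarithmic axis). Red points are the 52 translation factor genes and grey points the protein-coding genes averaging at least 1 FPKM, of which 10 lie outside the plotted range of 3; the dashed lines mark 1.5-fold, which *Eef2k*, *Eif2b1* and *Eif4enif1* passed and *Eif2b3* and *Eif4a2* did not.

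*Eef2k* encodes the kinase that phosphorylates eEF2 and thereby slows elongation. It was at 0.28 FPKM in WT, about 13.0 fragments, and at 3.68 FPKM in ΔM, about 151 fragments. The intervals, 0.149 to 0.479 and 3.12 to 4.32 FPKM, did not overlap, and the log2 ratio was 1.87. With so few fragments in WT the size of the ratio is uncertain, and the gene reached the minimum mean, at 1.98 FPKM, only through its level in ΔM. The second row of this name, at 0 in both libraries, lies inside the gene on the same strand (chr7:128048945-128050725). How fragments were divided between these rows was not tested. The gene lies at chr7:127986345-128050733 on the plus strand (mm9), and its 5 protein-coding neighbours within 250 kb averaging at least 1 FPKM had log2 ratios between -0.39 and 0.58. Its substrate *Eef2* was at 44.5 and 49.1 FPKM, a log2 ratio of 0.14.

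*Eif2b1* encodes the alpha subunit of eIF2B, one of the subunits that sense phosphorylated eIF2. It was at 14.8 FPKM (12.9 to 16.8) in WT and 7.44 FPKM (6.06 to 9.04) in ΔM, a log2 ratio of -0.90. The gene lies at chr5:125020222-125029140 on the minus strand (mm9). *Eif4enif1* encodes 4E-T, a partner of eIF4E that carries it into the nucleus and into P-bodies. It was at 33.7 FPKM (31.4 to 36.1) in WT and 19.3 FPKM (17.5 to 21.3) in ΔM, a log2 ratio of -0.77, and lies at chr11:3102395-3144591 on the plus strand. For both, the level in ΔM was lower by far more than counting error. The neighbours of *Eif2b1* ranged from -0.44 to 0.36 (9 genes) and those of *Eif4enif1* from -0.93 to 0.38 (4 genes), so that 1 neighbour of the latter had a lower ratio than the gene itself.

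Within eIF2, the carrier of the initiator tRNA, the levels were low. *Eif2s1*, the alpha subunit that is phosphorylated under stress, was at 2.17 and 2.08 FPKM, and *Eif2s2*, the beta subunit, was at 1.86 and 1.70 FPKM, the lowest of the group. The gamma subunit has a gene on each sex chromosome. *Eif2s3x* was at 4.24 FPKM (3.57 to 5.0) in WT and 3.15 FPKM (2.54 to 3.86) in ΔM, and *Eif2s3y* was at 5.99 FPKM (5.04 to 7.07) in WT and 8.30 FPKM (7.11 to 9.64) in ΔM. The log2 ratios of the pair, -0.34 and 0.41, were of opposite sign, and the ratio of the Y-linked to the X-linked level was 1.41 in WT and 2.63 in ΔM. The other Y-linked genes examined were higher in ΔM as well: *Uty* was at 3.77 and 8.96 FPKM, *Ddx3y* at 1.55 and 2.33 FPKM and *Kdm5d* at 1.06 and 1.42 FPKM. *Xist* was at 1.68 FPKM in WT and at 0 in ΔM. The sex of the mice is not given in the sources used here, and its part in these differences was not tested.

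The log2 ratios of the 5 subunits of eIF2B ranged from -0.90 to 0.54, a span set by *Eif2b1* and *Eif2b3*, with quartiles of -0.17 and 0.11. *Eif2b1* was lower in ΔM, as given above, and *Eif2b3*, the gamma subunit, was at 3.48 FPKM (2.90 to 4.14) in WT and 5.50 FPKM (4.72 to 6.37) in ΔM, a log2 ratio of 0.54 that stayed under the call. The other 3 had log2 ratios of -0.17 (*Eif2b2*, 16.2 and 14.2 FPKM), -0.11 (*Eif2b4*, 9.45 and 8.66 FPKM) and 0.11 (*Eif2b5*, the catalytic subunit, 8.75 and 9.50 FPKM). The highest subunit was 4.65 times the lowest in WT and 2.59 times in ΔM.

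The genes of eIF3, the large scaffold that joins the small subunit to mRNA-bound eIF4G, had nearly equal levels in both libraries. Of 13 genes, 12 passed the minimum, with log2 ratios from -0.37 to 0.24 around a median of -0.01. After adding 1 FPKM to both values, 10 of the 12 were within 1.2-fold and none reached 1.5-fold. The exceptions to the 1.2-fold range on this scale were *Eif3a*, described below, and *Eif3g*. The latter was at 31.2 FPKM (29.2 to 33.1) in WT and 23.8 FPKM (22.1 to 25.7) in ΔM. The summed FPKM of the 12 was 307 and 296. Levels of the subunits differed from each other far more than the libraries did: *Eif3k* was the highest with 65.8 and 66.1 FPKM, followed in WT by *Eif3f* with 48.6 and 47.8 FPKM. *Eif3m* (2.95 and 3.65 FPKM) and *Eif3e* (3.37 and 3.61 FPKM) were the lowest of those that passed, and the highest subunit was 22.3 times the lowest in WT and 18.3 times in ΔM. *Eif3a*, the largest subunit, was at 13.4 and 10.9 FPKM.

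Of the 12 genes of the eIF4 group, 10 passed the minimum, with log2 ratios from -0.23 to 0.49 around a median of 0.05. Among the helicases, *Eif4a2* was at 74.1 FPKM (70.4 to 77.9) in WT and 104 FPKM (99.6 to 109) in ΔM, a log2 ratio of 0.49, and *Eif4a1* was at 22.3 FPKM (20.3 to 24.4) and 27.1 FPKM (24.7 to 29.6), a log2 ratio of 0.27. Both were higher in ΔM by more than counting error, and *Eif4a2* was the more abundant in each library, by 3.33 times in WT and 3.85 times in ΔM. *Eif4a3*, which by function is the helicase of the exon junction complex, was at 10.4 and 13.8 FPKM with overlapping intervals.

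Among the cap-binding proteins, *Eif4e2*, a repressor that binds the cap without recruiting eIF4G, was at 34.0 and 29.6 FPKM, whereas *Eif4e* itself was at 2.14 and 1.67 FPKM. The level of *Eif4e2* was thus 15.9 times that of *Eif4e* in WT and 17.7 times in ΔM. The row of *Eif4e3* that passed the minimum was at 2.33 and 3.62 FPKM, a log2 ratio of 0.47. Its identifier is not in the annotation used, so that no interval was calculated. Among the scaffolds, *Eif4g1* was lower in ΔM (80.1 against 68.7 FPKM) and *Eif4g3* higher (13.0 against 15.2 FPKM), both outside counting error, with log2 ratios of -0.22 and 0.21. The helicase cofactors *Eif4h* (25.9 and 23.2 FPKM) and *Eif4b* (3 and 3.43 FPKM) were close in both libraries.

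Several of these genes carry PAR-iCLIP sites in BMDMs, and their sequences are shown because they place the contacts of TTP and of HuR, another protein that binds U-rich RNA, within the factor genes. Each is the sense strand of NCBIM37 (mm9), written 5′ to 3′, with the site in capitals. Only sites found after 6 h of LPS were used, and TTP sites of an earlier LPS time were not searched. *Eif4g3* and *Eif3a* carry a TTP site in an intron, at chr4:137559432-137559437 (plus strand) and chr19:60861237-60861244 (minus strand). The flank of the latter, but not of the former, holds TATTTAT, the core of the AU-rich element.
Eif4g3 intron, TTP: tgaaatgtttTATCTAtctatctatc
Eif3a intron, TTP: gtcatcaactGAACATCTatttatttat
Sites of HuR lie in the 3′ UTR of *Eif4a1* (one at chr11:69480760-69480769, minus strand) and of *Eif5a* (chr11:69730542-69730544, minus strand), and in *Eif4g2* where transcripts have a 5′ UTR or an intron (one at chr7:118225135-118225164, minus strand). One site per gene is shown, and none of these 3 windows holds TATTTAT. Other HuR sites of *Eif4g2* lie inside snoU97, a snoRNA gene on the same strand (chr7:118219574-118219741), so that for these the host and the snoRNA cannot be told apart.
Eif4a1 3′ UTR, HuR: tttagacaccCTTTTCTTTGgggtaggctc
Eif5a 3′ UTR, HuR: tttctttttaATTcaatttggaa
Eif4g2 5′ UTR or intron, HuR: GTTTTCTCTCTTTCCAGGCTTTTCATTTCT
The list of HuR sites was held only in part, so a gene without a site here is not a gene without HuR binding. The genes with a TTP site had log2 ratios of 0.21 (*Eif4g3*) and -0.28 (*Eif3a*), and those with a HuR site had 0.27 (*Eif4a1*), -0.05 (*Eif4g2*) and -0.11 (*Eif5a*). Neither set, of 2 and of 3 genes, had ratios of a single sign, and the part of the sites in these ratios was not tested.

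The other 9 initiation factors had a median log2 ratio of -0.03 and ranged from -0.38 to 0.35. *Eif6*, which keeps the large ribosomal subunit from joining too early, was the highest with 48.4 and 50.2 FPKM, and *Eif5b* the lowest with 1.80 and 1.58 FPKM. Lower in ΔM by more than counting error were *Eif1a*, a factor of start codon scanning, with 17.3 FPKM (16.4 to 18.3) against 13.1 FPKM (12.2 to 14), and *Eif2d*, a factor that can deliver tRNA without GTP, with 3.99 FPKM (3.54 to 4.48) against 2.84 FPKM (2.44 to 3.29). *Eif1ax*, the X-linked gene of eIF1A, differed the other way, with 11.9 FPKM (11.2 to 12.6) in WT and 14 FPKM (13.2 to 14.8) in ΔM. The level of *Eif1a* was thus 1.46 times that of *Eif1ax* in WT and 0.936 times in ΔM. *Eif1*, which guards start codon choice, was at 4.31 and 5.75 FPKM, and its paralogue *Eif1b* at 3.91 and 3.82 FPKM, with overlapping intervals for each. *Eif5*, which activates the GTPase of eIF2, was at 5.26 and 4.78 FPKM, and *Eif2a*, which despite its name is no subunit of eIF2, at 16.1 and 16.4 FPKM.

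Of the 8 elongation factor genes 6 passed the minimum, with a median log2 ratio of -0.06. After adding 1 FPKM to both values 5 were within 1.2-fold, the exception being *Eef1g*. *Eef1a1* (247 and 245 FPKM) exceeded *Eef1a2* by 747 times in WT and 645 times in ΔM, although the level of *Eef1a2* rests on few fragments. The exchange factor subunits of eEF1 differed widely in level: *Eef1b2* was at 201 FPKM (195 to 208) and 186 FPKM (179 to 192), while *Eef1d* was at 6.53 and 5.37 FPKM and *Eef1g* at 4.38 and 5.69 FPKM. *Eef2*, the translocase, was at 44.5 FPKM (43.2 to 45.8) and 49.1 FPKM (47.7 to 50.5). *Eif5a*, named as an initiation factor but known to relieve stalled elongation, was at 28.5 and 26.4 FPKM, against 0.34 and 0.36 FPKM of *Eif5a2*. The summed FPKM of the 6 genes was 532 in WT and 517 in ΔM.

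Of 6 regulators that share the names of factors, 3 passed the minimum, and 2 of the 3 calls, *Eef2k* and *Eif4enif1*, were among them. The remaining one, *Eif4ebp1*, the eIF4E inhibitor released by mTOR signalling, was at 4.86 and 6.24 FPKM and exceeded *Eif4ebp2* and *Eif4ebp3* in both libraries. *Eef1e1*, a component of the tRNA synthetase complex, was at 6.77 FPKM (5.88 to 7.76) in WT and 8.90 FPKM (7.81 to 10.1) in ΔM, and *Eif1ad*, a protein with an eIF1A-like domain, was at 2.89 and 2.66 FPKM. Without the 3 regulators, *Eef1e1* and *Eif1ad*, 47 genes remain, *Eif4a3* among them, and *Eif2b1* was the single call.

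**Figure D3:**
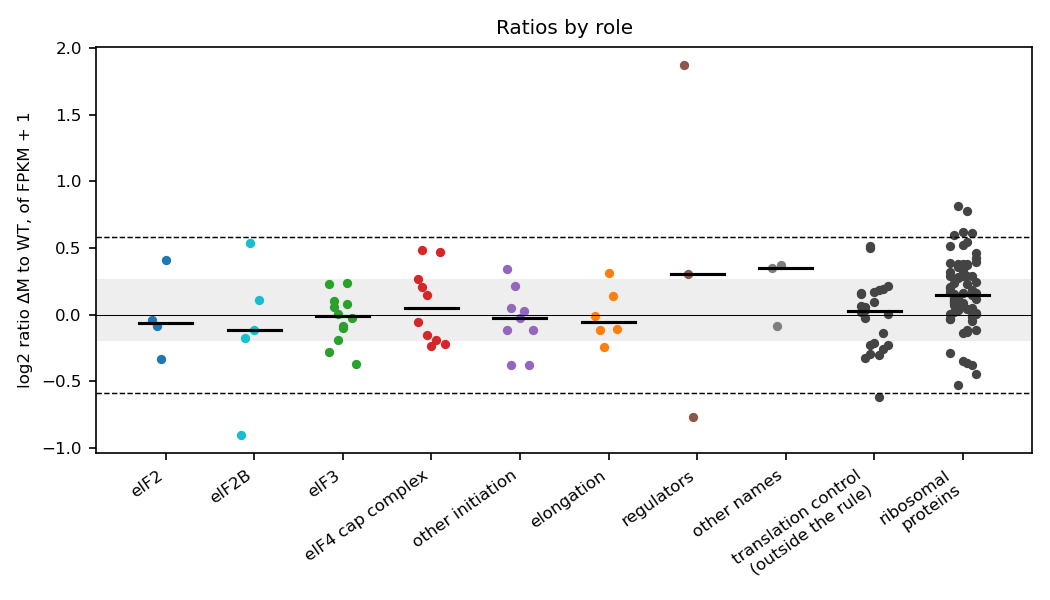
Log2 ratio of ΔM to WT of FPKM + 1 by role. Each point is a gene averaging at least 1 FPKM, black bars are medians, the grey band is the range between the quartiles of all 10765 genes and dashed lines mark 1.5-fold. The eIF3 and elongation genes lie close to 0, whereas the ribosomal protein genes at the right have a median of 0.15.

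Other genes of translational control were taken from a list of 28, of which 24 passed the minimum. Their median log2 ratio was 0.03. After adding 1 FPKM to both values, 0 were at least 1.5-fold higher in ΔM (against 11.2% of all genes and 4.82% of protein-coding genes). On the same scale 1 was at least 1.5-fold lower (against 7.51% and 5.36%). This was *Denr*, which acts in recycling and reinitiation, at 23.2 and 14.8 FPKM (-0.61). Its partner *Mcts1* was at 12 and 12.6 FPKM. Of the kinases of eIF2, *Eif2ak2* (PKR), an interferon-induced gene, was the highest with 68.2 and 69.8 FPKM. *Eif2ak3* (PERK) was at 6.88 and 10.2 FPKM (0.50), *Eif2ak1* at 4.99 and 5.08 FPKM, and *Eif2ak4* under the minimum. *Atf4*, a transcription factor translated when eIF2 is phosphorylated, was at 32.8 and 26.0 FPKM (-0.33), and its target *Ddit3* at 7.82 and 6.55 FPKM. Of the MNK kinases that phosphorylate eIF4E, *Mknk2* was at 2.53 and 4.05 FPKM (0.52) and *Mknk1* at 14 and 13.8 FPKM.

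The ribosomal protein genes, which belong to the same machinery, were placed differently. Of 79 genes 74 passed the minimum, and 60 of these (81.1%) were higher in ΔM, against 46.2% of the translation factor genes and 53.8% of all genes. Their median log2 ratio was 0.15, and the call was reached upward by 5 genes (6.76%, against 11.2% of all genes and 4.82% of protein-coding genes) and downward by 0. The sum of the 74 was 1657 in WT and 1853 FPKM in ΔM. These counts describe 2 libraries, and the difference between the lists was not tested.

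Many translation factor genes are hosts of snoRNA genes, whose small RNAs guide the modification of rRNA. A snoRNA gene lies inside 8 of the 52 genes (15.4%), against 2.25% of the 8078 protein-coding genes. The 8 hosts had a median of 59.3 FPKM in WT, against 9.32 FPKM for the other 44. Of the 16 snoRNA genes in these hosts, 15 were higher in ΔM, with a median log2 ratio of 0.37, and of all 480 snoRNA genes averaging at least 1 FPKM 363 were, with a median of 0.39. The hosts themselves had a median of -0.08. Among the 15 is a copy of SNORA19 inside *Eif3a* at 0 in WT and 5.82 FPKM in ΔM, which reached the minimum mean only through ΔM. The FPKM of snoRNA genes are inflated because the genes are shorter than the fragments, whose mean was 196 nt.

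In 3 hosts (5.77%, against 0.446% of protein-coding genes) 50% or more of a snoRNA gene overlaps an annotated exon, so that the positions of the snoRNA and the host are not separate. *Eif4g2*, the highest member, holds snoU97, of which 150 of 168 nt lie in an exon of a processed transcript and which was listed at 4463 and 6662 FPKM. In *Eif4a1* these are SNORA67 (1582 and 2159 FPKM) and SNORA48 (976 and 1654 FPKM), and in *Eif4a2* they include Snord2 (3859 and 4831 FPKM) and Snora81 (1803 and 2180 FPKM). The snoRNAs of *Eif4a1* and *Eif4a2* were higher in ΔM, as both hosts were, whereas snoU97 was higher and *Eif4g2* was not. The part of these snoRNAs in the levels of the hosts was not tested.

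**Figure D4:**
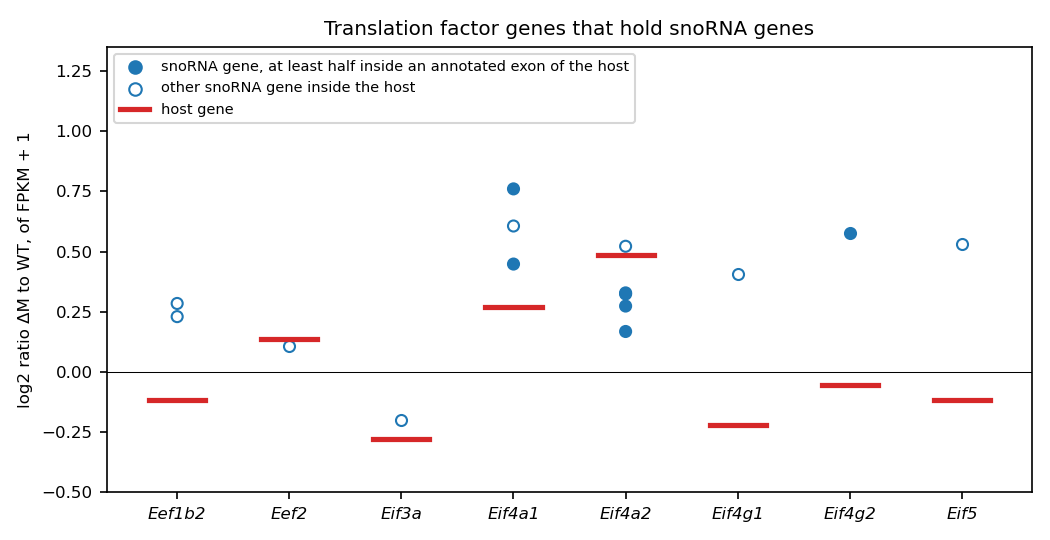
Log2 ratio of ΔM to WT of FPKM + 1 for the 8 translation factor genes that hold snoRNA genes (red bars) and for each of their snoRNA genes above 0 FPKM in WT (circles, filled where 50% or more of the snoRNA gene lies in an annotated exon of the host). The snoRNAs lie above 0 in 7 of the 8 hosts, and the hosts lie on both sides of 0.

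Reads were kept only when they mapped to a single place, so stretches with a copy elsewhere in the genome, such as a processed pseudogene, can yield few or none. Windows of 100 nt from annotated exons were therefore aligned to the genome. Of 51 genes with windows, 31 (60.8%) had no window without a unique place, against 83.5% of protein-coding genes and 9.72% of ribosomal protein genes. 50% or more of the windows were not unique in *Eif2s3x* (89.3%) and *Eif4a1* (52.6%), and the share was 40% in *Eef1a1*, 39.0% in *Eef1g* and 25% in *Eif1*. The paralogue comparisons above thus set genes of unequal uniqueness side by side, since the share was 0% in *Eif2s3y* and 18.1% in *Eif4a2*, and its part in their levels was not tested. The windows are the same for both libraries. *Eef2k*, *Eif2b1*, *Eif4enif1* and *Eif4g2* had 0% such windows. Of 72 ribosomal protein genes, 22 (30.6%) had 50% or more windows that were not unique, against 2 of 51 factor genes (3.92%). The median log2 ratio of these 22 was 0.18, against 0.12 for the other ribosomal protein genes with windows. The part of uniqueness in the difference between the lists was not tested.

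**Figure D5:**
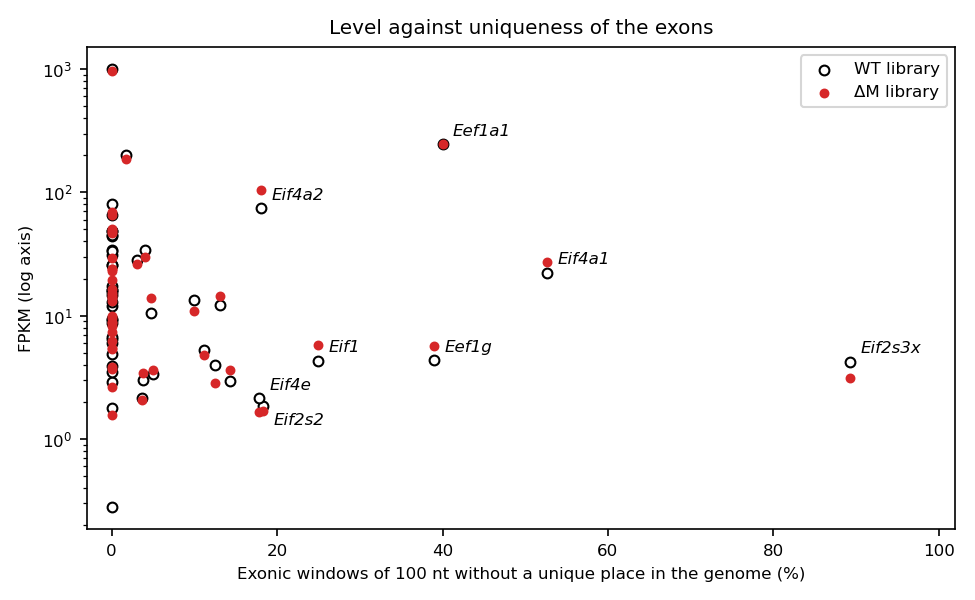
FPKM (logarithmic axis) of translation factor genes against the percentage of 100-nt exonic windows without a unique place in the genome; open circles are WT and red points ΔM. Most genes are at or near 0%, and *Eif2s3x* at 89.3% and *Eif4a1* at 52.6% stand apart.

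The 3′ UTRs were searched on the sense strand for UAUUUAU, the core that TTP is known to bind, in the longest annotated 3′ UTR of each gene. It occurred in 10 of 50 translation factor genes (20%), against 27.0% of 7935 protein-coding genes and 2.74% of 73 ribosomal protein genes. The median 3′ UTR was 921 nt long in the factor genes, 1121 nt in protein-coding genes and 91 nt in ribosomal protein genes, so that the lists offer unequal room for a match. The shorter AUUUA, which UAUUUAU contains, occurred in 60% of the factor genes and in 66.6% of protein-coding genes. The windows below show 5 of the matches, with the motif in capitals (sense strand of NCBIM37, written as RNA). They are shown because they include both genes with an intronic TTP site, a gene with HuR sites and the helicase *Eif4a2*. The TTP sites of *Eif4g3* and *Eif3a* given above lie in introns, so their 3′ UTR windows here are other positions.
Eif4a2, chr16:23113856-23113862, plus strand: guugguauugUAUUUAUucaauaaagu
Eif4g3, chr4:137762293-137762299, plus strand: auacauguacUAUUUAUagaaaauauu
Eif3a, chr19:60837249-60837255, minus strand: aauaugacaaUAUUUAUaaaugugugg
Eif4g2, chr7:118212563-118212569, minus strand: ucuuccauggUAUUUAUgaggaaggag
Eef2, chr10:80644958-80644964, plus strand: cuaccaauucUAUUUAUuucggaauua
The median log2 ratio was 0.05 in the 10 genes with the motif and -0.05 in the 40 genes without, beside 0.0025 and -0.0052 in protein-coding genes. The difference between these medians was not tested. *Eef2k*, *Eif2b1* and *Eif4enif1* are not among the genes with UAUUUAU. The shorter AUUUA occurred 4 times in the 3′ UTR of *Eef2k*, 1 time in that of *Eif2b1* and 0 times in that of *Eif4enif1*.

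A C followed by 4 pyrimidines at the annotated transcript start, as in mRNAs with a terminal oligopyrimidine tract, was found in 8 of 50 factor genes (16%), against 4.92% of 7925 protein-coding genes and 21.9% of 73 ribosomal protein genes. The 8 were *Eef1d*, *Eif2a*, *Eif2s1*, *Eif2s3x*, *Eif3f*, *Eif3h*, *Eif3m* and *Eif4b*. Their median log2 ratio was 0.00062, against -0.07 in the other 42. Annotated starts are inexact, and the low share among ribosomal protein genes, which are known for such tracts, limits what the count shows.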

How the data were processed

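RNA-Seq of rRNA-depleted, fragmented RNA was deposited for 1 WT and 1 ΔM library. The deposited values are FPKM per Ensembl gene, which the authors calculated with Cufflinks from uniquely mapped reads on mm9. 1 value of ΔM is not a number. FPKM are not counts, so no count test was used, and 1 library per genotype allowed no test. Members and lists were chosen with earlier results of these data known.

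Log2 ratios used a pseudocount of 1 FPKM and genes averaging at least 1 FPKM, and a call was 1.5-fold. All members are accounted for. Named with both values are the calls, the 5 largest differences each way, the 5 highest, the extremes of each role group, paralogues and genes with TTP or HuR sites. Further genes, among them those of the pathway list, were named after their values were seen.

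The number of fragments was found by searching the depth and fragment length that turn low FPKM of genes with a single transcript into whole fragments (within 0.1), which held for 90.3% of 1134 values in WT and 91.2% of 1231 in ΔM, where 20% is given by chance. In simulated libraries it was off by at most 0.4%. Intervals and fragment numbers used the median annotated transcript length. For some genes this is shorter than the longest annotated 3′ UTR, as for *Eef2k* (1469.5 against 3828 nt) and *Eif4g2* (599 against 4707 nt). The intervals and fragment numbers are therefore approximate. Gene models were GENCODE M1 on NCBIM37, which held 37039 of 37451 identifiers. Exon windows of 100 nt, every 25 nt, were aligned with minimap2 2.31. Sequences were read with samtools 1.23.1. Protein sequences were not used here. All scripts ran in Python 3.11.15 with scipy 1.17.1, pandas 2.3.3, numpy 2.4.6 and matplotlib 3.10.9. Alternatives varied the pseudocount, the minimum, the scaling and the genes included.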

Additional observations from a re-analysis of the deposited data

How the results depend on the processing

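The median log2 ratio of the translation factor genes stayed between -0.07 and -0.0016 under the alternatives run. The number of genes at least 1.5-fold higher in ΔM was 1, and became 3 with a pseudocount of 0.1 FPKM (*Eef2k*, *Eif2b3* and *Eif4e3*), 0 averaging at least 10 FPKM, which kept 28 genes without *Eef2k*, and 0 without the regulators, *Eef1e1* and *Eif1ad*, which kept 47. The last alternative also lowered the number of genes at least 1.5-fold lower from 2 to 1, since it leaves out *Eif4enif1*. The log2 ratio of *Eef2k* was 3.31 with a pseudocount of 0.1 FPKM and 0.72 with 5 FPKM, and that of *Eif4e3* was 0.23 with 5 FPKM. Centring on the median of all genes turned the sign of 2 of 52 members, *Eif3k* and *Eif2a*, and the other scalings and pseudocounts turned 0. No paired analysis was possible because each genotype has a single library, and for the same reason no library was left out. Depth limits the members near or under 1 FPKM most.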

Other observations

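Rows that the choice by name left out include pseudogenes with sizeable values. Eif4a-ps4 was listed at 27.3 in WT and 29.7 FPKM in ΔM, beside 22.3 and 27.1 FPKM for *Eif4a1*, and Eif5al3-ps at 17.1 FPKM in both, beside 28.5 and 26.4 FPKM for *Eif5a*. Eif3s6-ps2 was at 8.58 and 7.46 FPKM, above *Eif3e* at 3.37 and 3.61 FPKM. Reads of a near-identical copy and of its parent gene cannot be told apart with certainty, so these values are uncertain. Of the Argonaute genes, which act in microRNA silencing, *Eif2c3* was at 21.0 in WT and 13.5 FPKM in ΔM, a log2 ratio of -0.60, and *Eif2c1* at 4.20 and 3.76 FPKM, while the 2 rows of *Eif2c2* did not exceed 0.52 FPKM in either library.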
